A study of Mus musculus with 2 samples.

Results

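The insulin-like growth factor (IGF) ligands and receptors *Igf1*, *Igf2*, *Igf1r*, *Igf2r* and *Ins2* were examined on 2 Affymetrix MOE430A arrays of mouse cochlear RNA at embryonic day 18.5. The 5 genes were taken by name, with each probe set that the platform annotation pairs with 1 of these symbols and no other, which gave 10 of 22626 probe sets and 5 of 12393 genes. Embryos came from matings of *Igf1* heterozygotes on C57BL/6J, in which the targeted allele is disrupted in the germ line and therefore in every tissue, and cochleae were dissected with the otic capsule and without vestibular tissue. The labels conflict on which array holds the null genotype, since the source name of each array gives the genotype that the title of the other gives. The names +/+ array and −/− array below follow the titles alone, and differences run as the level on the −/− array less that on the +/+ array. By the labels each array holds 8 cochleae, whereas the methods describe several smaller independent pools per genotype, so a column may be 1 array or a summary of several. With 1 column per title there was no replicate, no test and no p-value.

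IGF-I, encoded by *Igf1*, and IGF-II, encoded by *Igf2*, are small secreted relatives of insulin. Both act through the receptor tyrosine kinase IGF1R, which recruits insulin receptor substrates and activates the AKT and ERK kinases. IGF2R, the cation-independent mannose 6-phosphate receptor, has no kinase, carries IGF-II to the lysosome and so clears it. *Ins2* encodes one of the mouse insulins and is expressed mainly in pancreatic beta cells. In the inner ear, IGF-I is known for its part in the survival and maturation of auditory neurons, and loss of the gene causes deafness in mice and humans.

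Of the 5 genes, *Igf1* was the one with a shift outside the central range of probe sets of like level, and it was lower on the −/− array for all 3 of its probe sets. *Igf1r* was slightly higher on that array for both of its probe sets. *Igf2* and *Igf2r* differed little and with opposite signs between their probe sets, and *Ins2* was read at low level. Levels are deposited log2 values, on which a difference of 1 is a doubling. The median difference of all probe sets that are not controls, 0.022, was subtracted from each difference.

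**Figure D1:**
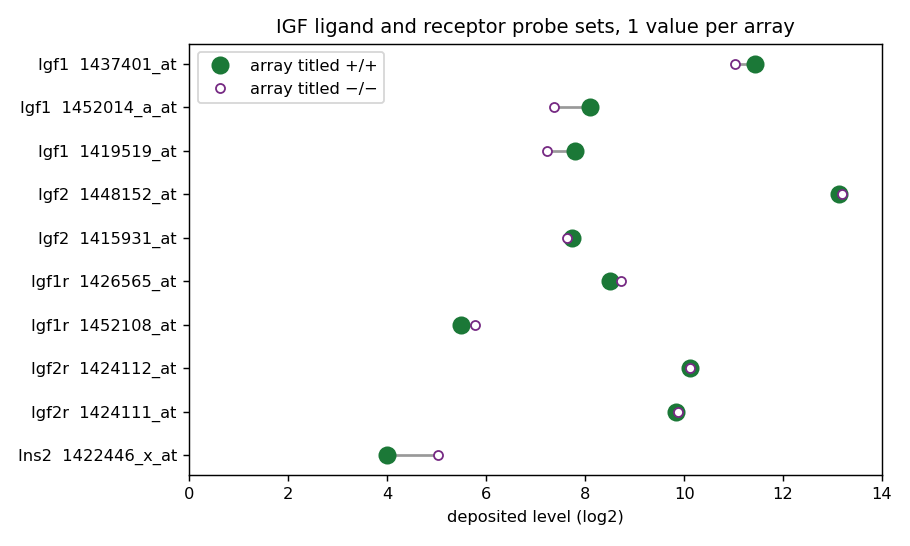
Deposited log2 level (horizontal axis) of the 10 probe sets of *Igf1*, *Igf2*, *Igf1r*, *Igf2r* and *Ins2*, with 1 value on the +/+ array (large filled green circles) and 1 on the −/− array (small open purple circles). The 3 *Igf1* probe sets lie further left on the −/− array, the *Igf1r* probe sets and that of *Ins2* further right, and the *Igf2* and *Igf2r* circles overlap.

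The *Igf1* probe set 1437401_at was at a log2 level of 11.42 on the +/+ array and 11.03 on the −/− array. The probe set 1452014_a_at was at 8.11 and 7.37 and 1419519_at at 7.78 and 7.23, in the same order of arrays. All 3 were thus well above the floor on both arrays, whichever of them holds the null. After centring, the log2 differences were −0.42, −0.75 and −0.58, so that the level on the −/− array was 25.1%, 40.7% and 32.9% lower. Their mean was −0.58 ± 0.17 (SD over 3 probe sets). These probe sets read the same RNA and are not replicates of a genotype. The sources do not say which bases of *Igf1* the targeted allele is missing, so transcripts on both arrays do not settle the labels.

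The bases just before the RefSeq start sites (GRCm38.p6) are shown for *Igf1*, the gene that stood apart, and for *Igf2*, *Igf1r* and *Igf2r*. The promoter sequences at hand held no window for *Ins2*. Each run holds the 250 bases before the start, 5′ to 3′ on the strand of the gene, with GC boxes (GGGCGG on either strand) in capitals. The *Igf1* run lies at chr10:87860861-87861110 on the plus strand, the *Igf2* run, at the most downstream of 4 starts, at chr7:142657497-142657746 on the minus strand, the *Igf1r* run at chr7:67952007-67952256 on the plus strand and the *Igf2r* run at chr17:12769707-12769956 on the minus strand.
*Igf1*: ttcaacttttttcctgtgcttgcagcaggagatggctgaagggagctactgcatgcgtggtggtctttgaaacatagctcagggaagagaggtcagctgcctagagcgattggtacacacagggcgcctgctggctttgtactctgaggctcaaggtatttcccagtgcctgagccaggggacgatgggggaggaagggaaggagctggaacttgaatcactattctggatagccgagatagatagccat
*Igf2*: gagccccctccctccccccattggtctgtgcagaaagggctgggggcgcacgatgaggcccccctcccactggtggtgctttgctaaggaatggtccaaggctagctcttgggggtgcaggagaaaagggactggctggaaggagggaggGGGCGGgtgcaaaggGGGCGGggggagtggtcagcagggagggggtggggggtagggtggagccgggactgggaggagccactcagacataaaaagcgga
*Igf1r*: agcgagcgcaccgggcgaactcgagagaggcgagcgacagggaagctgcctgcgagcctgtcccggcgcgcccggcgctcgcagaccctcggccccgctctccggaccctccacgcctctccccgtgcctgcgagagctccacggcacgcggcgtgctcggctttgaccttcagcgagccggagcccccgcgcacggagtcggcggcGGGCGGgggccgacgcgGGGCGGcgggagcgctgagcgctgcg
*Igf2r*: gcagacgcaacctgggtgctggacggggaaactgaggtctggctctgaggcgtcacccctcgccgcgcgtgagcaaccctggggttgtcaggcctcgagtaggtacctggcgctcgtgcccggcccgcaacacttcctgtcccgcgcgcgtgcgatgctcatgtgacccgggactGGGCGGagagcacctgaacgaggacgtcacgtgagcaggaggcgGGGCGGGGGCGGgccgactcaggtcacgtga
The *Igf1* window held no GC box and 5 CpG dinucleotides at 52.8% G+C, close to the median window of all genes, which had 6 CpG and 52.4% G+C. The *Igf1r* window held 2 GC boxes and 42 CpG, and 99.1% of 32851 windows had fewer CpG. The *Igf2r* window held 3 GC boxes, of which 2 adjoin, and 27 CpG. The 4 *Igf2* windows held 1, 10, 22 and 6 CpG and 0, 0, 1 and 2 GC boxes from the first start to the last. A GC box was found in 32.7% of all windows. The letters TATAAA on either strand were found in 12.4% of all windows and in none of these 7. These matches describe the letters of the windows, and no binding was measured.

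The *Igf1* differences were set beside all probe sets in the same quartile of mean level, since the spread between the arrays was widest at low level. In the highest quartile, from a mean level of 8.19, the central 95% of differences ran from −0.29 to 0.36, and in the quartile below it, from 6.60, from −0.39 to 0.50. The *Igf1* values of −0.42 in the first of these classes and −0.75 and −0.58 in the second lay below these ranges. In the quartile of the 2 weaker *Igf1* probe sets, 1.01% of 5656 probe sets were lower by at least 0.5 log2 units. Between probe sets of the same gene, differences had a pooled SD of 0.095 in the highest quartile and 0.17 in the next. Each *Igf1* difference was therefore larger than the spread between probe sets of 1 gene, which measures neither the spread between embryos nor that between arrays.

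**Figure D2:**
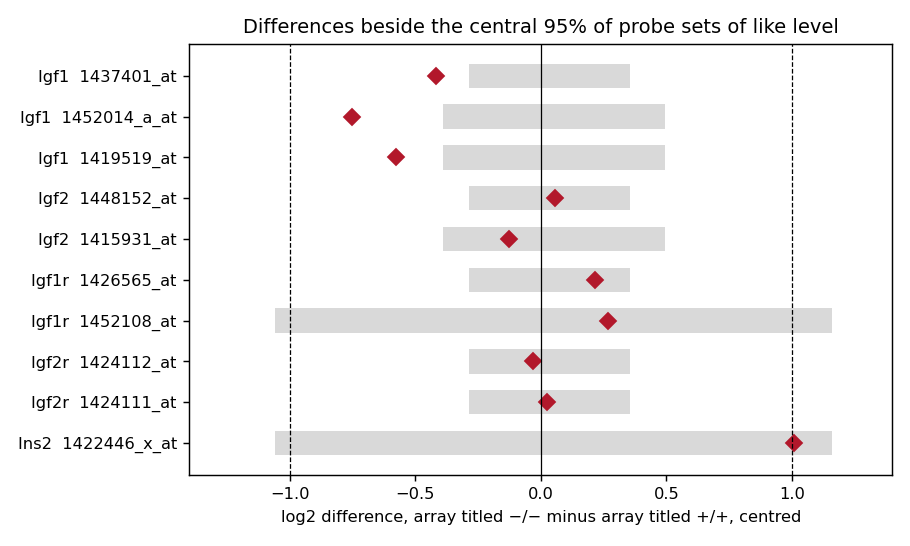
Centred log2 difference, −/− array minus +/+ array (horizontal axis, red diamonds), of the 10 ligand and receptor probe sets. Grey bars span the central 95% of all probe sets in the same quartile of mean level, dashed lines mark −1 and 1, and the 3 *Igf1* diamonds, at −0.42, −0.75 and −0.58, lie left of their bars.

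Genes with several probe sets at good level allow the same comparison gene by gene. Of 438 genes with at least 3 probe sets, each read above the median level of the arrays, *Igf1* had the third lowest mean difference. The 2 genes below it were the transthyretin gene *Ttr*, at −1.14, and the clusterin gene *Clu*, at −0.58. In 4 of the 438 genes (0.913%), *Igf1* among them, every probe set was at −0.42 or below. That limit is the highest *Igf1* difference itself, so *Igf1* met it by construction. This ranking was added after the values were seen and carries no test.

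**Figure D3:**
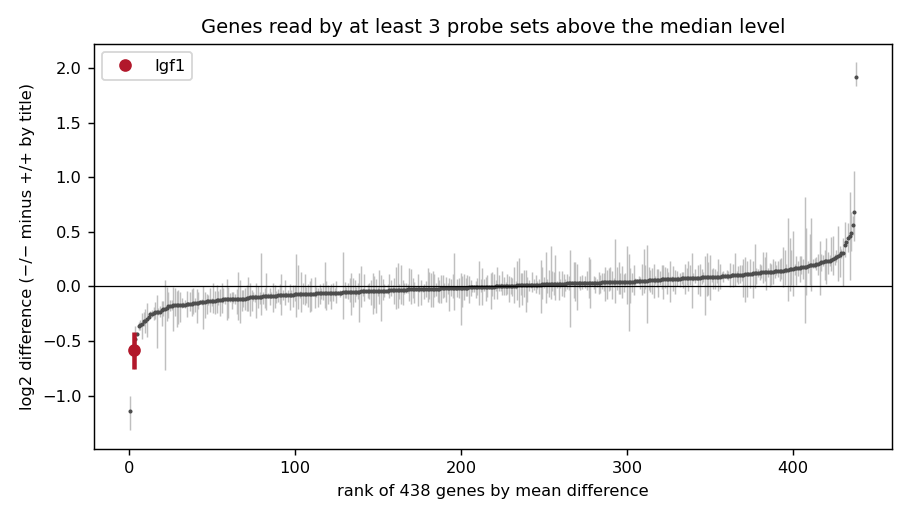
Mean centred log2 difference (vertical axis, points) of 438 genes read by at least 3 probe sets above the median level, ranked from lowest to highest (horizontal axis), with lines from the lowest to the highest probe set of each gene. *Igf1* (red) is the third from the left at −0.58, with its probe sets from −0.75 to −0.42.

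Marker genes of several cell types and neighbouring tissues were lower on the −/− array, as *Igf1* was, and those of others were higher. Of all genes, 50.5% were higher on the −/− array, the share to set beside each count of markers below. Most lists are short, and counts near an even split do not stand apart from that share. In bulk tissue fewer cells of a type and less RNA per cell cannot be told apart. Of 7 measured markers of strial marginal cells, which secrete potassium into the endolymph, 6 were lower on the −/− array, with a list median of −0.60 and a sum of unlogged levels of 1635 on the +/+ array and 1372 on the −/− array. Only 2 of the 7 lay above the median level of all genes, *Slc12a2* and *Atp1b2*, and these differed by −0.21 and −0.024. The larger differences of this list were read at lower levels. Of 10 markers of supporting cells and the cochlear floor, 8 were lower, with a median of −0.37 and sums of 4438 and 3508. Of 9 markers of otic mesenchyme and fibrocytes, 6 were lower, with a median of −0.18, while the sums ran the other way, at 42329 and 42994. The lowest 2, chosen for their values, were *Tbx18* and *Pou3f4*, transcription factors of this mesenchyme, at −0.67 and −0.64. The 3 collagen genes *Col1a2*, *Col3a1* and *Col1a1*, with the highest levels of this list, were at 0.096, 0.069 and 0.19. None of the markers in these 3 lists was listed at 0.

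Markers of other organs moved too. All 8 markers of lung epithelium were lower on the −/− array, with a median of −3.57 and sums of 2735 and 329. Only 1 of the 8, *Sftpc*, lay above the median level of all genes, at 10.94 and 7.47, and the sums are mostly this gene. Its probe sets ranged from −3.49 to −0.90, and those of *Sftpa1*, read at lower level, from −4.13 to 0.68. Of 7 markers of hepatocytes, the main source of circulating IGF-I after birth, 6 were lower with a median of −1.94 and sums of 5264 and 2635, *Fgb* (counted as lower by centring) was listed at 0 on both arrays and *Ahsg* on the −/− array. The hepatocyte sum is mostly *Ttr*, which choroid plexus also expresses, at 12.32 and 11.34, and *Alb*, the albumin gene, was at 6.14 and 4.22. All 9 markers of skeletal muscle ran the other way, with a median of 1.05 and sums of 14608 and 23854. Control probe sets differed as well, with a mean level of 6.57 and 7.37 for 18S ribosomal RNA, and *Gapdh* read higher at its 3′ than at its 5′ end by 0.27 and 0.36. The +/+ array listed 1310 probe sets at 0 and the −/− array 1028, at medians of 6.58 and 6.63. The part of these tissues and of RNA quality in the *Igf1* difference was not tested.

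The remaining marker lists had medians on either side of 0. Of 4 markers of Schwann cells 3 were lower, with a median of −0.20, and of 6 of choroid plexus and meninges 4 were lower, with a median of −0.44. Of 9 markers of auditory neurons 5 were higher and 4 lower, with a median of 0.27. Of 6 markers of the pituitary 4 were higher and 2, the hormone genes *Prl* and *Lhb*, lower at −1.71 and −0.77, with a median of 1.65. The medians were 0.010 over 8 markers of cartilage, 0.0065 over 9 of hair cells, 0.067 over 8 of endothelial and mural cells, −0.017 over 6 of macrophages and −0.047 over 3 of bone. Markers of the labelled tissue were read on both arrays, with the hair cell myosin *Myo7a* at 6.89 and 6.91, the fibrocyte gene *Coch* at 9.58 and 9.20 and the cartilage collagen *Col2a1* at 13.42 and 13.45.

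**Figure D4:**
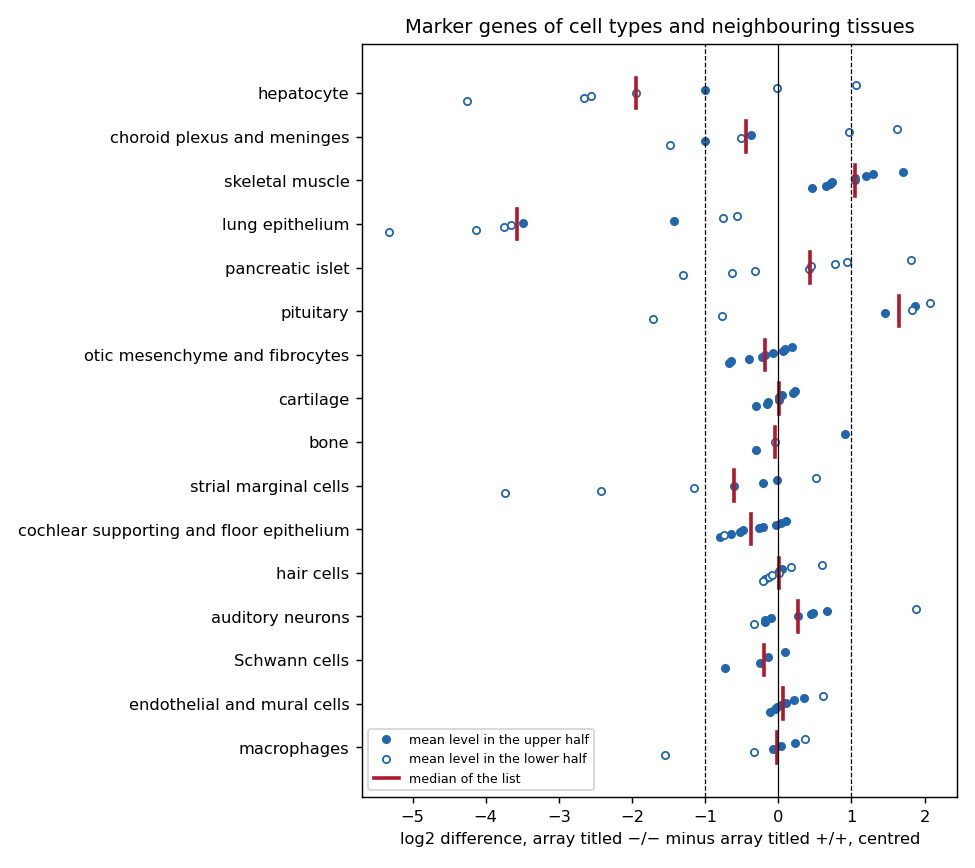
Centred log2 difference, −/− array minus +/+ array (horizontal axis), of the measured markers of 16 cell types or tissues, 1 point per gene, filled for a level above the median probe set and open elsewhere. Red ticks mark list medians, −3.57 for lung epithelium and 1.05 for skeletal muscle, and dashed lines mark −1 and 1.

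*Igf2*, the fetal growth factor expressed from the paternal allele, was at 13.12 on the +/+ array and 13.20 on the −/− array for the probe set 1448152_at. The highest value on either array was 13.67 in all, so this probe set lay close to the top of the scale. Its centred difference was 0.055. The other probe set, 1415931_at, was at 7.74 and 7.63, a difference of −0.13. The probe sets thus differed in sign, and both values lay inside the central range of their quartile. A difference at least as large was found for 65.7% and 49.3% of probe sets in the respective quartiles. The sign of the stronger probe set turned, to −0.0085 after quantile normalization and −0.00083 after loess.

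*Igf1r*, the signalling receptor for both IGFs, was at 8.50 on the +/+ array and 8.73 on the −/− array for the probe set 1426565_at, a centred difference of 0.21 or 16.1%. The weaker probe set 1452108_at was at 5.48 and 5.77, a difference of 0.27. Both were higher on the −/− array, the array with the lower *Igf1* levels. The first difference exceeded the pooled SD between probe sets of a gene in its quartile, 0.095, and lay inside the central 95%, with 12.5% of probe sets at least as far from 0. The second lay inside the pooled SD of its quartile, 0.45. Both *Igf1r* probe sets kept this direction without centring, after quantile normalization, after loess and with low values raised, from 0.20 to 0.24 for the first.

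*Igf2r*, the clearance receptor for IGF-II, was at 10.13 on the +/+ array and 10.12 on the −/− array for 1424112_at and at 9.84 and 9.88 for 1424111_at. The centred differences were −0.032 and 0.022. No shift was detectable in this gene beyond the spread between probe sets, and 79.5% and 85.9% of probe sets in the highest quartile differed by at least as much. *Airn*, the noncoding RNA transcribed against *Igf2r* from the paternal allele and named here after its values were seen, was at 9.10 and 9.24, a difference of 0.12.

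*Ins2* was at 3.99 on the +/+ array and 5.02 on the −/− array for its only probe set, 1422446_x_at, whose suffix marks probes that can also bind other transcripts. The near-identical *Ins1* is one such transcript that this probe set may read. The centred difference was 1.01, which passed a limit of 1 log2 unit. The methods of the study used that limit only together with a probability of change, which is not available here. The *Ins2* probe set was the only one of the 10 past the limit. Of all probe sets, 6.27% were higher by at least 1 and 5.04% were lower by at least 1. Within the quartile of *Ins2*, from a mean level of 4.05 to 6.60, 3.96% were higher by at least 1. The value lay just past the limit, and the next largest, that of the *Igf1* probe set 1452014_a_at at −0.75, fell short of it. *Ins2* fell short of 1 after quantile normalization, loess and raising of low values, with a lowest value of 0.89. Of 8 measured markers of pancreatic islets, 5 were higher and 3 lower, with sums of only 58.5 and 82.5 and *Ppy* and *Slc2a2* at 0 on the +/+ array.

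The rest of the pathway was described together with imprinted genes, in 8 lists of 104 genes, of which 82 were measured. On the −/− array, 50 were higher and 32 lower, or 61.0% higher against 50.5% of all genes, with a median of 0.060 against 0.0028. The imprinted list, which is not a list of IGF pathway genes, had the largest share, with 16 of 20 higher (80%). In the other lists the share ran from 33.3% to 75%, so the pooled share does not describe the pathway alone. Of the 82, 5 were higher by at least 1, against 5.54% of all genes, and 1 was lower by at least 1, against 4.07%. All 6 had a mean level of at most 3.61, near the floor. They were *Insrr*, an orphan relative of the insulin receptor, at 2.75, *Irs4*, an insulin receptor substrate, at 1.56, the relaxin family receptor *Rxfp2* at 1.53, *Igfbpl1* at 1.04, the imprinted *Peg10* at 3.33 and the RAS exchange factor *Sos1* at −2.09. The probe sets of *Sos1* ranged from −2.09 to 4.16.

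**Figure D5:**
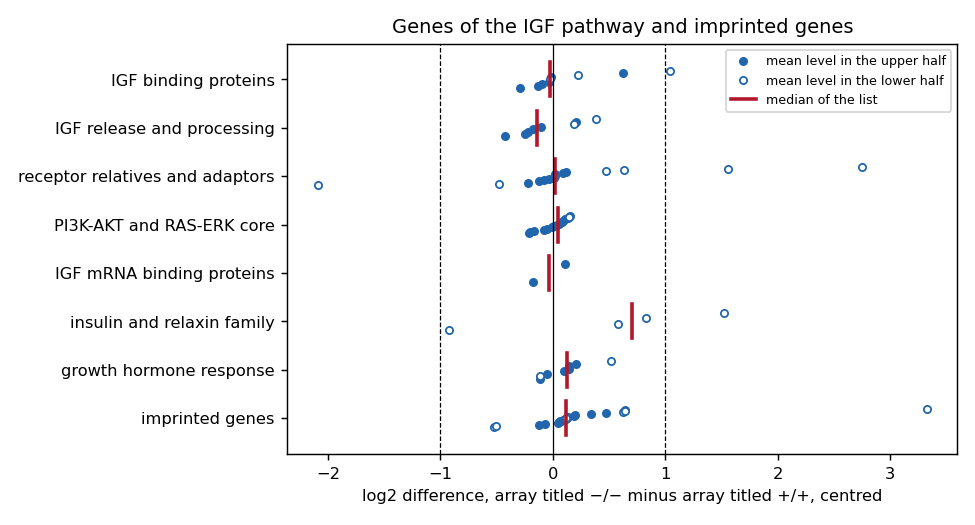
Centred log2 difference, −/− array minus +/+ array (horizontal axis), of the measured genes of 8 lists around the IGF ligands and receptors, 1 point per gene, filled for a level above the median probe set and open elsewhere. Red ticks mark list medians, and the 6 points past the dashed lines at −1 and 1 are all open.

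Binding proteins, which hold IGFs in the circulation and in the matrix, were lower in 6 and higher in 3 of 9 genes, with a median of −0.022. *Igfbp4* was at 12.26 on the +/+ array and 12.24 on the −/− array, and *Igfbp5* at 12.16 and 12.05. Differences ranged from −0.23 to −0.035 over the probe sets of *Igfbp4* and from −0.48 to −0.13 over those of *Igfbp5*. *Igfbp3* and *Igfbp6*, named after their values were seen, differed by −0.30 and 0.62 and lay outside the central range of their quartiles on opposite sides. *Igfbp1* was listed at 0 on both arrays, and centring alone counts it as lower and makes its value the median. Proteins that release or process IGFs were lower in 5 and higher in 3 of 8 genes, with a median of −0.14. Among them, the protease *Htra1* differed by −0.25 and the insulin-degrading enzyme *Ide* by −0.18.

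Among 16 relatives and adaptors of the receptor, 10 were higher and 6 lower, with a median of 0.014. *Irs1*, the substrate that couples IGF1R to PI3-kinase, was at 10.68 on the +/+ array and 10.83 on the −/− array, a difference of 0.12. *Irs2*, its closest relative, was at 4.66 and 5.31 and *Insr*, the insulin receptor, at 4.01 and 3.55. These differences of 0.63 and −0.48 were read at low level, and the probe sets of *Insr* ranged from −0.48 to 0.27. *Grb10*, an imprinted inhibitor of the receptor, differed by 0.088. In the PI3K-AKT and RAS-ERK core, 10 of 16 genes were higher and 6 lower, with a median of 0.047. *Akt1* and *Pdpk1*, the kinase that activates it, differed by 0.061 and 0.13. The probe sets of *Akt1* ranged from −0.022 to 0.061 and those of *Pdpk1* from −0.21 to 0.13, so both genes had probe sets of opposite sign.

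In the growth hormone response, which drives *Igf1* in the liver after birth, 5 of 8 genes were higher and 3 lower, with a median of 0.12. The growth hormone receptor gene *Ghr* differed by 0.14 and the inhibitor *Socs2* by −0.12. The IGF mRNA binding protein genes *Igf2bp3* and *Igf2bp1* differed by 0.11 and −0.18, while other probe sets of each reached 2.08 and 1.30. Of the insulin and relaxin family, 4 of 10 genes were measured, all below the median level of genes, with 3 higher, 1 lower and a median of 0.70, and the peptide genes *Insl6* and *Insl5* differed by −0.93 and 0.58. *Ins1* and *H19*, the neighbour of *Igf2* that shares its enhancers, had no probe set with a single symbol.

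*Igf2*, *Igf2r* and *Grb10* are imprinted, and a list of imprinted genes, *Grb10* among them, was set beside *Igf2* and *Igf2r*. Of 20 measured, 16 were higher and 4 lower on the −/− array, with a median of 0.12. Of the 14 above the median level of all genes, 12 were higher, against 49.1% of all genes in that range. *Meg3*, a noncoding RNA, was at 12.82 on the +/+ array and 13.18 on the −/− array, and *Plagl1*, a zinc finger factor that regulates other imprinted genes, at 12.79 and 13.01. *Dlk1*, the membrane ligand encoded beside *Meg3*, differed by 0.65 and the neuronal gene *Nnat* by 0.48, both named after their values were seen. *Igf2* at 0.055 and *Igf2r* at −0.032 lay below the list median. The number of imprinted genes that were higher was 14 after quantile normalization and 15 after loess. *Dlk1* is also expressed in muscle and pituitary, of whose markers 9 of 9 and 4 of 6 were higher on the same array, and the part of those tissues was not tested.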

How the data were processed

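Cochlear RNA was labelled with biotin and hybridised to MOE430A arrays. The authors ran MAS5.0 and RMA in a first analysis and then multi-mgMOS of the PUMA package for their levels, in versions not given in the sources used here, and which of these made the deposited log2 values is likewise not given. Those values run from 0 to 13.67, with no stated scaling or centring, and the base of 2 was read from their range. Of 22690 probe sets, 64 controls were left out, and 20380 of the rest have 1 symbol, 691 several and 1555 none in the platform annotation. Of those with 1 symbol, 20351 matched a RefSeq gene of GRCm38.p6.

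Differences were centred on their median, and a gene was read by its probe set of the highest mean level unless all are given. The members and the gene lists were chosen with earlier results of these data known. Genes named are all probe sets of the 5 genes, the 2 genes of highest level in each pathway list, any pathway gene past 1 log2 unit above the median level, *Insr*, *Irs1*, *Irs2*, *H19* and *Ins1*, and those said in the text to be added or counted there. Marker genes fall outside this rule, and those named were chosen after their values were seen. The alternatives were no centring, quantile normalization, loess (span 0.3), a floor at the 25th percentile of each array, other choices of probe set, a limit of 0.5 and only levels above the median. Steps were tested on simulated arrays. With 1 array per title no error could be given. The number of arrays limits the precision, and counts of probe sets past a limit describe these arrays only. Protein sequences were not analysed here. Python 3.11.15, numpy 2.4.6, pandas 2.3.3, statsmodels 0.14.6 and matplotlib 3.10.9 were used.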

Additional observations from a re-analysis of the deposited data

How the results depend on the processing

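No paired analysis was possible because each title has 1 array. The *Igf1* difference, −0.42 for the strongest probe set, was −0.58 both as the mean over its probe sets and for the weakest one, and *Igf2*, at 0.055, was −0.13 for its weakest probe set. Without centring, after either normalization and with low values raised, *Igf1*, *Igf1r* and *Ins2* kept their signs, with *Igf1* from −0.44 to −0.39 and *Ins2* from 0.89 to 1.03. The 1 probe set higher by at least 1, that of *Ins2*, became 0 after quantile normalization, after loess, with low values raised to the 25th percentile and with only probe sets above the median level. With a limit of 0.5, 2 of the 10 probe sets, both of *Igf1*, were lower, against 10.3% of all probe sets, where none was at a limit of 1. Of the 82 genes of the pathway and imprinted lists, the 5 higher and 1 lower by at least 1 became 13 and 4 at a limit of 0.5. Of all genes, 12% were higher and 8.6% lower by at least 0.5. The counts became 0 and 0 with low values raised and with only levels above the median. Averaged over the probe sets of a gene, 0 genes of these lists were lower by at least 1. The cause of these shifts was not tested, except that a limit or a level filter changes a count by its construction.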

Other observations

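The ranking of 438 genes with at least 3 probe sets above the median level held other genes of known function near its ends. Beside *Ttr* and *Clu*, the lowest included *Phgdh*, the first enzyme of serine synthesis, at a mean of −0.48 over 4 probe sets, and *Tgfb2*, a growth factor gene, at −0.43 over 3, with probe sets from −0.45 to −0.42. Clusterin is a secreted chaperone. At the other end, growth hormone, *Gh*, was highest at 1.92 over 4 probe sets, and *Rian*, a noncoding RNA of the imprinted cluster that also holds *Dlk1* and *Meg3*, was next at 0.68 over 3. *Meg3* itself had a mean of 0.44 over 5 probe sets, all from 0.31 to 0.58. The neuronal intermediate filament gene *Ina* had a mean of 0.56 and the tropomyosin gene *Tpm2* one of 0.49. Of 6 pituitary markers, *Gh* among them, 4 were higher and 2 lower on the same array, and all 9 muscle markers were higher, and their part in these values was not tested. All of these genes were chosen after their values were seen.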
